A study of Mus musculus with 47 samples.

Results

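The Schlafen genes of the mouse are a family of interferon-inducible genes that sit side by side on chromosome 11. The 7 members described here, Slfn1, Slfn2, Slfn3, Slfn4, Slfn5, Slfn8 and Slfn9, were chosen by gene symbol. They are 7 of the 51912 genes listed for bone-marrow-derived macrophages (BMDMs), and all 7 were also listed in each of the 4 tables of Raw264.7 cells, a mouse macrophage line, which held between 12771 and 23772 genes. All members share an amino-terminal Schlafen domain, and they are grouped by length. Slfn1 and Slfn2 are the short members, Slfn3 and Slfn4 the intermediate ones, and Slfn5, Slfn8 and Slfn9 the long ones, which also carry a helicase-like domain at the carboxyl end. The name comes from the German word for sleep, because the first members were described as brakes on the growth of thymocytes. Slfn2 keeps resting T cells quiescent, and Slfn4 is best known from myeloid cells, where type I interferon and Toll-like receptor ligands induce it. Type I interferon acts through its receptor and a transcription factor complex that binds the interferon-stimulated response element (ISRE) of its target genes.

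The study asked what the chromatin reader ZMYND8 does in inflammatory macrophages. BMDMs came from C57BL/6 mice and were grown in M-CSF at 20 ng/ml. WT cells were from Zmynd8 fl/fl littermates, and Zmynd8 cKO cells came from floxed mice heterozygous for Lyz2-Cre, in which Cre is made in myeloid cells and removes exons 6 and 7. Cells of each genotype were left untreated (NT, labelled M0) or treated for 6 h with LPS at 100 ng/ml (labelled M1), a bacterial product sensed by TLR4, or with IL-4 at 20 ng/ml (labelled M2), a type 2 cytokine. Each of these 6 libraries was made by mixing 3 biological replicates, so there was 1 library per group and no replicate check on any difference. The intervals given below are 95% exact limits on the reads of the libraries compared, and they cover counting error alone. The Raw264.7 libraries came from cells in which CRISPR had disrupted Zmynd8 or p65, the NF-κB subunit encoded by Rela. The Zmynd8 KO cells were sequenced as such, with WT Zmynd8 put back, or with D/E-A put back, a form whose acidic residues in the disordered region were changed to alanine. The p65 KO cells were sequenced as such, with WT p65, or with K122R, in which a lysine that can be acetylated was changed to arginine. The labels give LPS for the 3 p65 lines and no treatment for the 3 Zmynd8 lines. The study's text describes the cells with WT Zmynd8 and D/E-A as treated with LPS. The column of the WT p65 line is headed as WT with LPS, which could also mean cells without any knockout, and it was matched to the WT p65 sample because no other sample of its table fits.

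The BMDM libraries summed to between 22597408 and 28386612 counts and the Raw264.7 libraries to between 15127110 and 21042628 reads. Zmynd8 itself had 2284 counts in WT and 1842 in cKO BMDMs under NT, 1967 and 2033 under LPS, and 3636 and 3944 under IL-4, so the gene-level count did not separate the genotypes. These gene-level values cannot show the loss of the floxed exons 6 and 7. In the lines, Rela had 765 reads in p65 KO against 1601 with WT p65. Zmynd8 had 485 reads with WT Zmynd8, but its deposited value in Zmynd8 KO is the 1 value of that table that is not a whole number of reads. It was therefore not used, and the knockout of Zmynd8 was not checked by its transcript. The 6 macrophage markers summed to between 6133 and 9444 CPM in BMDMs, where CPM is the count scaled to a common library total. The 7 neutrophil markers summed to at most 4.22 CPM in the NT and LPS libraries, with Elane at 0 in all 4 of them, but to 382 CPM in WT and 514 CPM in cKO IL-4 libraries, where none was at 0. The B cell markers reached 17.2 CPM and the T cell markers 29.4 CPM at most in BMDMs, with Cd3d at 0 in all 6 libraries. The dendritic cell markers stayed at or below 7.38 CPM there. The Zmynd8 and p65 lines stood far apart: neutrophil markers summed to between 4420 and 10400 CPM in the Zmynd8 lines and to between 0.18 and 0.319 CPM in the p65 lines. All 7 were listed for the Zmynd8 lines, but only 3 of the 7 in each comparison of the p65 lines. Xist had between 7109 and 8467 reads in the Zmynd8 lines and at most 3 in the p65 lines. Raw264.7 is a macrophage line from a male mouse, so these values of the Zmynd8 lines go against their label, and whether these libraries are of Raw264.7 cells was not tested. They are named by their labels here. Fold changes were taken within each trio of lines alone. In BMDMs Xist was at 740 CPM in WT and 323 CPM in cKO NT cells, at 246 and 429 CPM with LPS, and at 1110 and 1060 CPM with IL-4. Its level thus differed between the libraries of most comparisons below, and its part in the results was not tested.

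The 7 members lie within a cluster that spans 344 kb on chromosome 11 (mm10). Its ends are set by other genes with Slfn symbols, the antisense transcript Slfn5os before Slfn5 and Slfn14 beyond Slfn3. Slfn5 (82951349-82964855), Slfn2 (83065112-83070678), Slfn1 (83116845-83122659), Slfn4 (83175172-83190216) and Slfn3 (83191330-83215154) are on the plus strand, and Slfn9 (82978382-82991830) and Slfn8 (83002158-83020810) on the minus strand. Because the members arose by duplication, reads can fall on more than one of them. Of all 50-base words in its transcripts, the read length used, Slfn5 shared 0.0% with another gene of the family and Slfn1 0.606%. The share was 4.27% for Slfn2, 7.39% for Slfn3 and 8.15% for Slfn4. It was highest for Slfn9 (11.2%) and Slfn8 (14.6%), each of which shared most with the pseudogene Slfn10-ps. By this measure Slfn8, Slfn9, Slfn3 and Slfn4 carry more uncertainty about the source of a read than Slfn5 and Slfn1. The measure covers the family alone, and words shared with other genes were not counted. The deposited counts of Slfn1 were whole numbers in 6 of 6 BMDM libraries, but those of Slfn5 in 0 of 6. They were whole in 3 for Slfn2, 1 for Slfn4 and 0 for Slfn3, Slfn8 and Slfn9, so Slfn5 was not set apart here.

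The 250 bases before the start of 4 members are shown because they hold the letters of an interferon or NF-κB response element, the sequences through which interferon and LPS are known to act on genes. They are RefSeq sequences on GRCm38.p6, read 5′ to 3′ along the gene. The start is that of 1 RefSeq transcript, and for Slfn5 it lies downstream of the leftmost base given above, so that this window is inside the gene as the files place it. Capitals mark the ISRE core GAAANNGAA on either strand and the NF-κB consensus. The windows are chr11:82951852-82952101 (plus strand) for Slfn5, chr11:82991831-82992080 (minus) for Slfn9, chr11:83020811-83021060 (minus) for Slfn8 and chr11:83116570-83116819 (plus) for Slfn1.
Slfn5: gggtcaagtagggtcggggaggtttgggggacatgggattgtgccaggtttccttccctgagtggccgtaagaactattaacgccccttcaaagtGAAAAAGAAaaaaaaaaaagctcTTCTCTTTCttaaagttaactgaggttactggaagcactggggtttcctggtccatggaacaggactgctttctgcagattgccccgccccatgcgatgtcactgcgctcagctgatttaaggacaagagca
Slfn9: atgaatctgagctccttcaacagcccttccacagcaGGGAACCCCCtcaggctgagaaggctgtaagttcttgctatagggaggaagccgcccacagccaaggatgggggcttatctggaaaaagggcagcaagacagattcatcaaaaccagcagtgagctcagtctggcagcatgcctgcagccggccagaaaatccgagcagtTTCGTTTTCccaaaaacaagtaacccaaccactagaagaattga
Slfn8: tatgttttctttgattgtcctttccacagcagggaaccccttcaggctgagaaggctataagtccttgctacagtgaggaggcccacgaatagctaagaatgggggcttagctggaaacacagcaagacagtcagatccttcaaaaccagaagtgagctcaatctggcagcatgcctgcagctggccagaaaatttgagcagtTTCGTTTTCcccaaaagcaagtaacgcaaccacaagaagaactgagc
Slfn1: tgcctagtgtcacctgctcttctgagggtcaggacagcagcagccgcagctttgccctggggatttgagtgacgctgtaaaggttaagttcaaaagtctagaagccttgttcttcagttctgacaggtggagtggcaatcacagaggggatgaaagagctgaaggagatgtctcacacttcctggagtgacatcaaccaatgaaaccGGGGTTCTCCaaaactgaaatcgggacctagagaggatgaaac
Slfn5 held 2 copies of the ISRE core, 1 in the orientation of the gene at 155 to 147 bases before this start and 1 on the opposite strand at 132 to 124 bases before it. Slfn9 held 1 copy at 44 to 36 bases and Slfn8 1 copy at 47 to 39 bases before the start, both on the strand opposite to the gene and with the same letters. Slfn8 has a second RefSeq start, before which the same match lies at 135 to 127 bases. Windows were also set side by side in pairs, without gaps and at the 1 shift with the highest share of equal bases. Slfn8 and Slfn9 were the most alike, with 49.4% of 247 bases equal, against 29.5% to 36.1% for the other pairs. A base inserted in 1 of the 2 windows puts the rest out of step, so these shares can understate the likeness. The NF-κB consensus was in Slfn9, 214 to 205 bases before the start on the strand opposite to the gene, and in Slfn1, 43 to 34 bases before it in the orientation of the gene. The ISRE core was found in 7.13% and the NF-κB consensus in 3.9% of the 32851 promoter windows searched in the same way. Slfn2, Slfn3 and Slfn4 held neither motif, and the interferon-gamma element TTCNNNGAA (7.02% of all windows) was in no member window. These are matches of letters and not measured binding sites.

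Slfn2 gave the most abundant Schlafen transcript in every BMDM library. On the length-normalised TPM scale, on which levels of different genes can be compared, it was at 482 in untreated WT and 232 in untreated cKO cells, at 1380 and 1310 once LPS was added, and at 491 and 597 with IL-4. Slfn2 took between 46.7% and 76.2% of the summed TPM of the 7 members. In WT NT cells the order below Slfn2 was Slfn5 (174 TPM), Slfn8 (72.0), Slfn3 (23.1), Slfn1 (21.6), Slfn4 (16.1) and Slfn9 (7.88). With 1 library per group there is no spread by which to separate neighbours in this order, and Slfn3 and Slfn1 were nearly equal. LPS moved Slfn4 to the second place in both genotypes, at 576 TPM in WT and 662 TPM in cKO cells, or 21.5% and 23.6% of the family sum. Across the 6 libraries Slfn4 had the widest range, 120-fold in CPM between its lowest and highest library, and Slfn2 the narrowest, 5.22-fold. The range was 27.4-fold for Slfn1, 22.7-fold for Slfn9, 11.8-fold for Slfn8, 9.28-fold for Slfn5 and 5.9-fold for Slfn3. The summed TPM of the family was 797 in WT and 305 in cKO NT cells, 2684 and 2809 in the LPS libraries, and 655 and 912 in those with IL-4. The cKO NT library was thus the lowest of the 6 and the LPS libraries the highest.

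**Figure D1:**
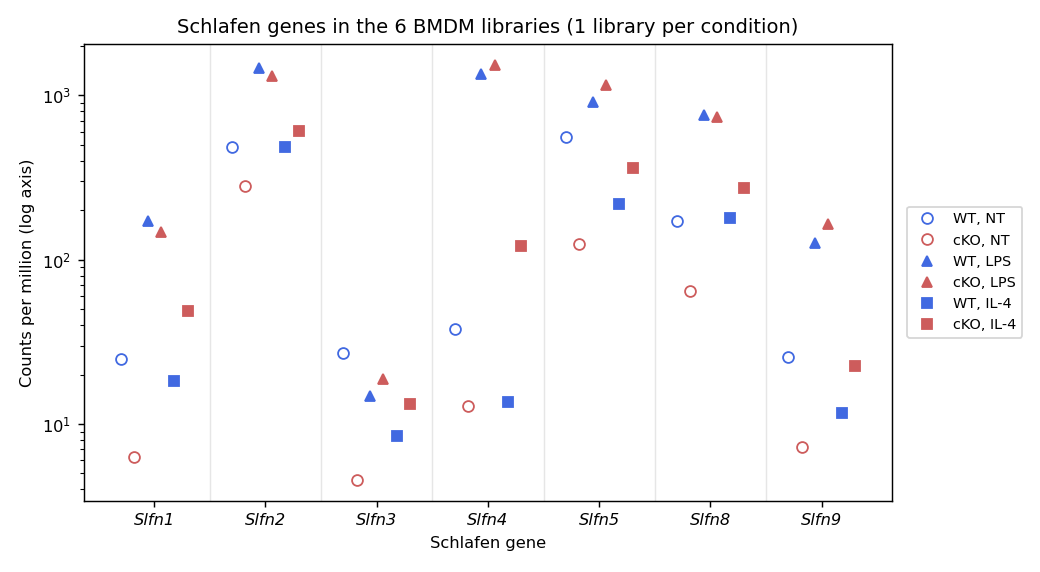
CPM of each Schlafen gene (log axis) in the 6 BMDM libraries, 1 point per library, with WT in blue and cKO in red and with circles for NT, triangles for LPS and squares for IL-4. For all 7 genes the cKO NT library is the lowest point, and the cKO point lies above the WT point under IL-4.

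The first comparison asked how loss of ZMYND8 changed the family in untreated macrophages. All 7 members were lower in the cKO than in the WT library, by a fold of at least 1.2, the fold threshold in the study's methods, which also set limits on p values that were not applied here. Of all 12463 genes tested, 29.0% were lower and 25.0% higher by that fold. The median log2 fold change was −1.68 for the members and −0.01 for all genes tested. No member was higher. In RNA from a bulk culture, fewer cells of a type and less RNA per cell cannot be told apart. On the deposited TPM scale the median of all genes was −0.20 and 22.0% of the genes past the fold were higher, against 46.3% on CPM, and all 7 members were still lower. Xist differed by −1.19 between these same libraries, and its part in the result was not tested.

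Among the long members, Slfn5 was at 558 CPM in WT and 125 CPM in cKO NT cells, a log2 fold change of −2.15 (interval −2.21 to −2.09). Slfn8 was at 173 and 64.7 CPM (−1.40, −1.49 to −1.32) and Slfn9 at 25.5 and 7.26 CPM (−1.68, −1.91 to −1.46). The 3 long members were therefore lower by 4.44-fold, 2.64-fold and 3.21-fold. The intermediate members were Slfn3, at 26.9 and 4.56 CPM (−2.33, −2.58 to −2.07), and Slfn4, at 37.7 and 12.8 CPM (−1.49, −1.67 to −1.31). Slfn3 had the largest difference of the family, 5.01-fold, and ranked 23rd from the bottom of all genes tested, followed by Slfn5 at rank 30. Of the short members, Slfn1 was at 24.8 and 6.28 CPM (−1.83, −2.06 to −1.59). Slfn2, the most abundant, was at 485 and 280 CPM (−0.79, −0.83 to −0.75), the smallest difference in the family, and ranked 709 from the bottom. Slfn1 (62), Slfn9 (79) and Slfn4 (104) ranked between them. The interval of Slfn2 did not overlap that of any other member.

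Schlafen genes are known targets of interferon, so a list of 30 interferon-response genes was set beside them. All 30 of 30 tested were lower in cKO NT cells, with a median of −1.54 and a range from −3.13 for Ifit2, which binds viral RNA, to −0.39 for Irf9, a subunit of the interferon-activated transcription factor. Of the interferon ligand and receptor genes, 4 of 5 could be tested, 1 was lower by the fold (Ifnar1, a chain of the type I interferon receptor, at −0.32) and the median was −0.05. Ifnb1, which encodes interferon-beta, had 0 counts in both NT libraries.

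After LPS the members differed less between the genotypes than under NT. In the cKO library, 3 of 7 members were higher by the fold and 0 were lower, against 22.6% higher and 13.3% lower of all 12386 genes tested. The median was 0.19 for the members and 0.03 for all genes. The 3 members were Slfn5, at 910 CPM in WT and 1160 CPM in cKO cells (0.35, interval 0.32 to 0.38), Slfn9, at 127 and 165 CPM (0.37, 0.31 to 0.44), and Slfn3, at 14.9 and 18.9 CPM (0.32, 0.13 to 0.51). They differed by 1.25-fold to 1.3-fold. Slfn4 was at 1345 and 1535 CPM (0.19), Slfn8 at 763 and 734 CPM (−0.06), Slfn1 at 172 and 147 CPM (−0.22) and Slfn2 at 1461 and 1310 CPM (−0.16). None of these 4 passed the fold, but with median-ratio scaling Slfn1 (−0.27) passed as lower. Among the 30 interferon-response genes 7 were lower and 0 higher (median −0.08), from −0.43 for Isg20 to 0.23 for Parp14. Ifnb1 had 61 counts in WT and 28 in cKO cells. Of the 6 LPS-response genes listed as a check, 4 were higher in the cKO LPS library and 0 lower, with a median of 0.65, up to 1.42 for Il1b. Under NT 5 of them could be tested, 1 was higher and 3 were lower (median −0.28).

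Under IL-4 the direction was the opposite of that under NT. All 7 members were higher in the cKO library and 0 were lower, against 17.3% higher and 13.4% lower of 13245 genes tested, and the median was 0.71 against 0.01 for all genes. Of all genes past the fold, 56.5% were higher, and 44.5% with TMM scaling, under which Slfn2 (0.25) no longer passed and 6 members were higher. Slfn4 stood out: it was at 13.7 CPM (388 counts) in WT and 121 CPM (3156 counts) in cKO cells, a log2 fold change of 3.05 (interval 2.91 to 3.20) or 8.3-fold, and it ranked 8th from the top of all genes tested. Slfn1 followed, at 18.2 and 48.8 CPM (1.38, 1.23 to 1.52), at rank 90. The difference was 0.91 for Slfn9 (11.6 and 22.6 CPM), 0.71 for Slfn5 (219 and 359 CPM), 0.60 for Slfn8 (180 and 272 CPM) and 0.60 for Slfn3 (8.45 and 13.3 CPM). Slfn2 again differed least, at 486 and 603 CPM (0.31, 0.28 to 0.34). Among the interferon-response genes 27 of 30 passed upwards and 0 downwards (median 0.82), from −0.14 for Irf7 to 1.73 for Ifit1. None of the 4 tested ligand and receptor genes passed the fold (median −0.05), and Ifnb1 had 0 counts in WT and 1 in cKO cells. All 6 LPS-response genes were higher in the cKO IL-4 library (median 1.63). The neutrophil markers were at 382 CPM in the WT and 514 CPM in the cKO library in this comparison, and their part in the result was not tested.

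**Figure D2:**
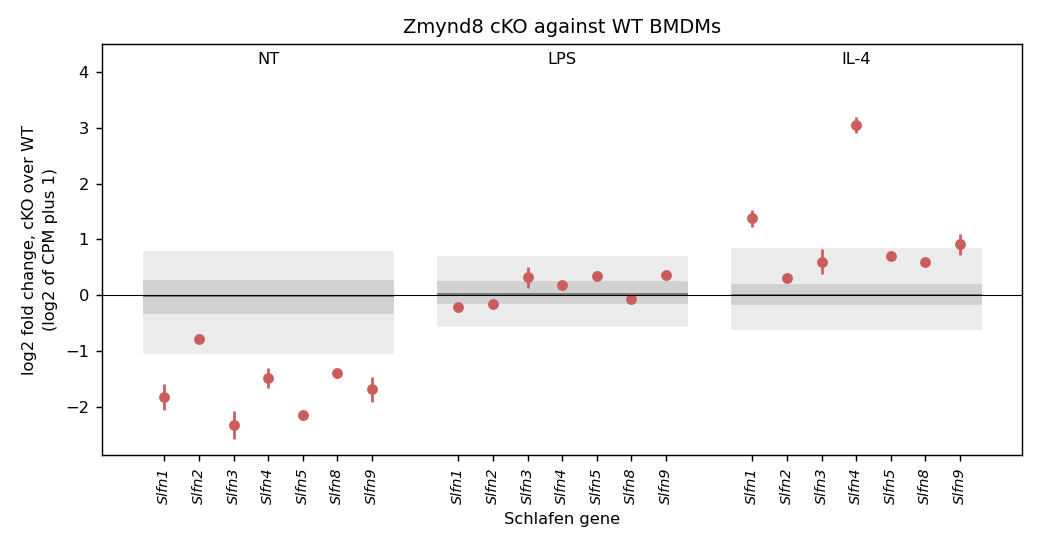
Log2 fold change of cKO over WT BMDMs, on log2(CPM + 1), for each Schlafen gene under NT, LPS and IL-4. Bars are 95% counting limits, the line and the shaded bands give the median, the middle 50% and the middle 95% of all genes tested, and the points run from −2.33 to −0.79 under NT, from −0.22 to 0.37 under LPS and from 0.31 to 3.05 under IL-4.

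LPS, which induces type I interferon through TLR4, was then compared with NT within each genotype. All library pairs were set on CPM, and a fold of at least 2 was used. In WT cells 5 of 7 members were higher after LPS and 0 were lower, against 10.5% higher and 32.8% lower of 12813 genes tested, with a median of 2.14 for the members and −0.58 for all genes. In cKO cells all 7 were higher and 0 lower, against 13.2% higher and 32.8% lower of 12666 genes, with medians of 3.48 and −0.55. The medians over all genes were below 0 on the library-total scale. With median-ratio scaling they were 0.00 and −0.01, and the share of called genes that were higher went from 24.2% to 53.6% in WT and from 28.6% to 54.2% in cKO cells.

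Slfn4 had the largest response: it went from 37.7 to 1345 CPM in WT cells, a log2 fold change of 5.12 (interval 5.03 to 5.21) or 34.7-fold, and from 12.8 to 1535 CPM in cKO cells, 6.80 (6.64 to 6.96) or 111-fold. It ranked 54th and 33rd from the top of all genes. The size depended on the scale, with 5.74 in WT and 7.35 in cKO cells with TMM and 5.81 and 7.42 with the median ratio, and the other members also had higher values with both. Of the short members, Slfn1 came next after Slfn4, with 2.74 in WT and 4.35 in cKO cells, and Slfn2 was at 1.59 and 2.22. Among the long members the log2 fold change was 2.14 in WT and 3.48 in cKO cells for Slfn8, 2.27 and 4.33 for Slfn9, and 0.71 and 3.21 for Slfn5. Slfn5 did not pass the 2-fold rule in WT cells on the library-total scale. It passed at 1.33 with TMM and at 1.40 with the median ratio. Slfn3 was the exception in the family: in WT cells it was lower after LPS, from 26.9 to 14.9 CPM (−0.81, interval −0.98 to −0.63), which did not pass the fold and shrank to −0.22 with TMM and −0.14 with the median ratio. In cKO cells it was higher, from 4.56 to 18.9 CPM (1.84, 1.57 to 2.11). Slfn3 and Slfn4 are the intermediate members and lie next to each other, and 7.39% of the 50-base words of Slfn3 also occur in the family, all of them in Slfn4.

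The log2 response to LPS was larger in cKO than in WT cells for every member, by 2.64 for Slfn3, 2.5 for Slfn5, 2.06 for Slfn9, 1.68 for Slfn4, 1.61 for Slfn1, 1.35 for Slfn8 and 0.63 for Slfn2. By construction each value is the genotype difference after LPS minus that under NT, taken from the same 4 libraries. Over all genes tested the median response was −0.58 in WT and −0.55 in cKO cells. The share of all genes with a larger response in cKO cells was not counted, so how unusual the members are in this cannot be told. Of the interferon-response genes, 27 of 30 were higher by the fold in WT cells (median 2.22) and 29 of 30 in cKO cells (median 4.09), from 0.00 for Irf9 to 4.35 for Oasl1 in the former and from 0.23 for Irf9 to 7.07 for Rsad2 in the latter.

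In WT cells 4 of 7 members were lower and 0 higher after IL-4, against 6.19% lower and 10.0% higher of 13090 genes tested. The median was −1.07 for the members and 0.15 for all genes. The 4 members were Slfn3, from 26.9 to 8.45 CPM (−1.56, interval −1.76 to −1.36), Slfn4, from 37.7 to 13.7 CPM (−1.40, −1.56 to −1.24), Slfn5, from 558 to 219 CPM (−1.34, −1.39 to −1.30), and Slfn9, from 25.5 to 11.6 CPM (−1.07, −1.25 to −0.89). On the deposited TPM scale Slfn9 was at −0.79 and 3 members passed. Slfn2 and Slfn8 were level, at 0.00 and 0.05, and Slfn1 was at −0.43. In cKO cells all 7 were higher after IL-4 and 0 lower, against 15.0% higher and 6.09% lower of 12966 genes, with medians of 1.52 and 0.17. The share of called genes that were higher went from 61.9% to 49.4% in WT and from 71.2% to 58.0% in cKO cells with median-ratio scaling, where the medians of all genes were −0.01. Slfn2 then lost its call in cKO cells (0.89, and 0.88 with TMM), which left 6 members higher. Slfn4 went from 12.8 to 121 CPM (3.14, 2.98 to 3.31) and Slfn1 from 6.28 to 48.8 CPM (2.77). The other values were 2.05 for Slfn8, 1.52 for Slfn5 and for Slfn9, 1.37 for Slfn3 and 1.10 for Slfn2. Of the interferon-response genes, 15 of 30 were lower and 0 higher in WT cells (median −0.98), and 20 were higher and 0 lower in cKO cells (median 1.12). The IL-4 libraries carry sample index numbers apart from those of the NT and LPS libraries and had more neutrophil marker counts, and their part in these treatment differences cannot be told apart from IL-4. The libraries matched their IL-4 label: Arg1, a classic IL-4 target, had 42592 counts in WT and 40252 in cKO IL-4 libraries against 20 and 14 under NT.

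**Figure D3:**
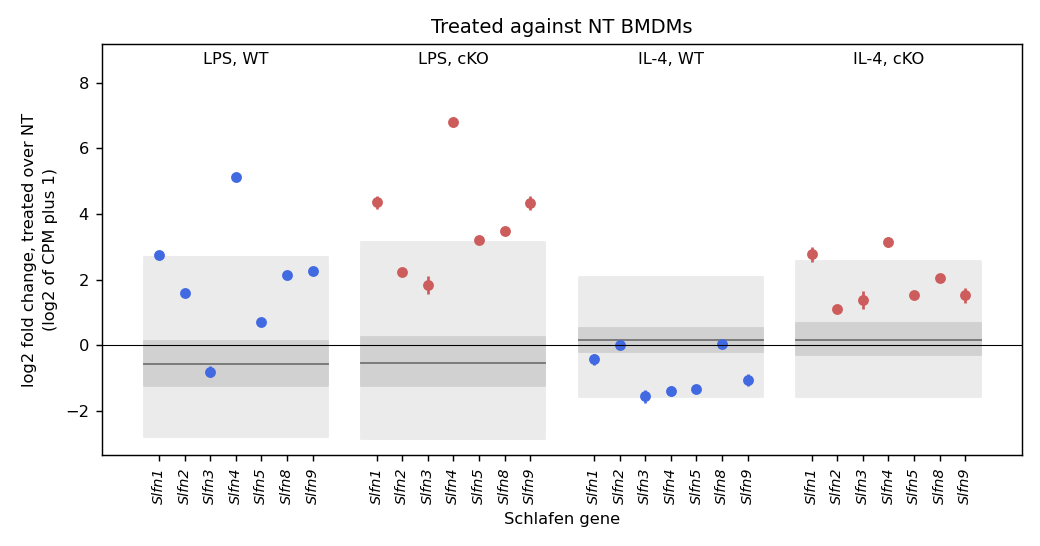
Log2 fold change of treated over NT BMDMs, on log2(CPM + 1), for each Schlafen gene after LPS or IL-4 in WT (blue) and cKO (red) cells. Bars, line and bands are as in the plot of cKO over WT; Slfn4 has the highest point in both LPS panels (5.12 and 6.80), and the IL-4 points lie between −1.56 and 0.05 in WT and between 1.10 and 3.14 in cKO cells.

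The genes around the cluster were compared in the same way. Of the 5 genes on each side, 9 could be tested under NT, of which 1 was higher and 2 were lower by the fold, with a median of −0.11 and a range from −0.43 for Taf15 to 0.50 for Nle1. Under LPS 9 could be tested, 3 were higher and 2 lower (median 0.17, from −0.28 for Nle1 to 0.40 for Lig3), a range like that of the members. Under IL-4 8 could be tested, 2 were higher and 0 lower (median 0.06, from −0.08 to 0.39 for Nle1, which was above Slfn2). Under NT the value of every tested neighbour was thus nearer to 0 than that of every member, and under LPS and IL-4 the values overlapped. Inside the cluster, the pseudogene Slfn10-ps had 1011 counts in WT and 209 in cKO NT cells (−1.95) and was higher in cKO cells after LPS (0.51) and IL-4 (0.44). Because it shares 19.7% of its 50-base words with the family, its counts cannot be fully told apart from those of the members. The pseudogene Gm11425, which lies between members next to Slfn10-ps, was at −0.77 under NT, close to Slfn2. The noncoding 1190001M18Rik, between Slfn5 and Slfn9, was at −0.03 with too few counts to be tested. AI662270 and Gm11427, which lie beyond Slfn3 on the side of Slfn14, were at −0.02 and −0.10. Of the other rows whose symbols begin with Slfn, Slfn14 had 0 counts in all 6 libraries, Slfnl1 0 to 1 and the antisense transcript Slfn5os 0 to 22.

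**Figure D4:**
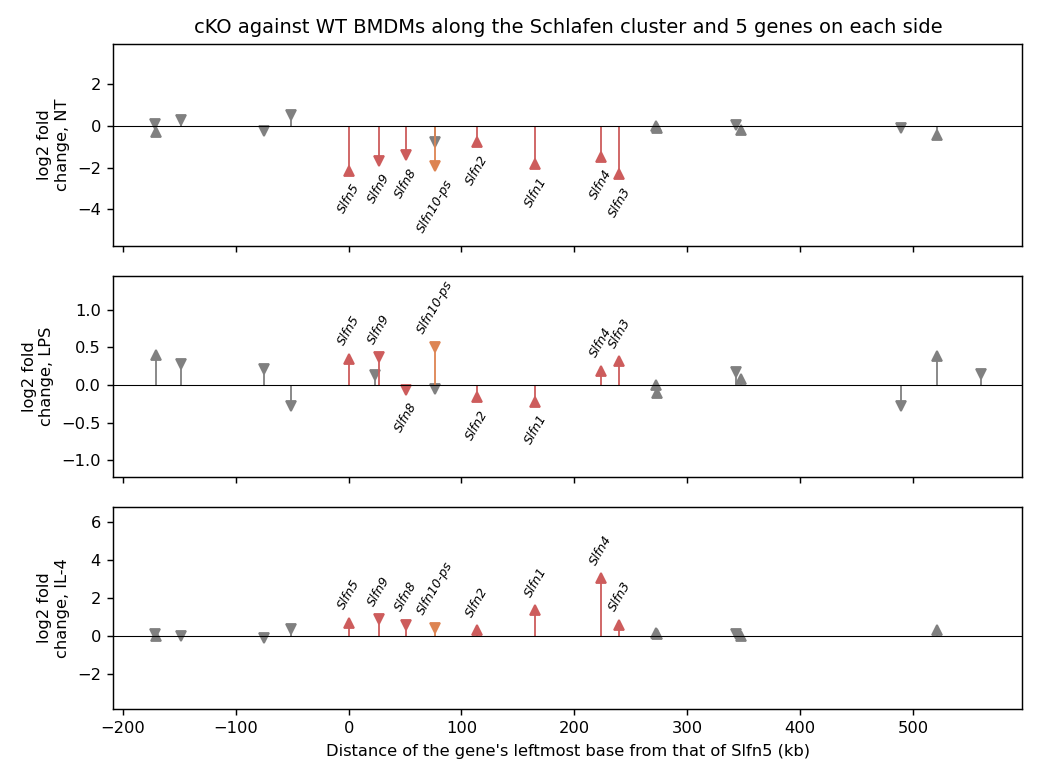
Log2 fold change of cKO over WT BMDMs against distance of each gene's leftmost base from that of Slfn5 (kb), in NT, LPS and IL-4 panels with their own vertical scales. Members are red, Slfn10-ps orange and other genes grey, triangles point up for the plus and down for the minus strand, and under NT the members lie between −2.33 and −0.79 while the tested neighbours outside the cluster lie between −0.43 and 0.50.

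The genes whose levels followed each member most closely over the 6 BMDM libraries were found by correlating log2(CPM + 1) with that of 9524 genes. These values describe 6 libraries that share treatments and genotypes. The nearest were Trim12a for Slfn1 (r = 0.9964), Tifa for Slfn2 (0.9992), Nod2 for Slfn4 (0.9954), Trim30d for Slfn5 (0.9939), Adar for Slfn8 (0.9981) and Gbp7 for Slfn9 (0.9995). Slfn3 was least well matched, with Fbxw11 at 0.9534. Next in order came Gm20559 for Slfn1, Drosha and Pkn2 for Slfn3, Tap1 and Ifih1 for Slfn2, Ehd1 and Rnf14 for Slfn4, H2-T24 and Srpr for Slfn5, Trim12a and Parp9 for Slfn8, and Helz2 and Ifi206 for Slfn9. Within the family, Slfn3 correlated with the others at 0.54 to 0.83, and the 6 others among themselves at 0.90 to 0.99.

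In the Raw264.7 lines Slfn2 and Slfn4 were the leading members, at 586 to 1380 and 777 to 1230 reads per kilobase of exon, scaled to the library as in RPKM. Slfn5 was at 182 to 331, Slfn8 at 103 to 200, Slfn9 at 22.0 to 49.3 and Slfn3, the lowest in all 6 lines, at 2.09 to 4.5 on this scale. Slfn1 was at 155 to 168 in the Zmynd8 lines and at 22.9 to 29.2 in the p65 lines, a gap between trios that cannot be told apart from their other differences. The lines were compared on the deposited normalised read counts, within a table and with the same fold of at least 1.2. Differences of this size were common between these single libraries.

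In the line labelled Zmynd8 KO, 3 of 7 members were higher than with WT Zmynd8 and 0 were lower. Of 21302 genes tested, 33.8% were higher and 36.5% lower. On library totals 4386 genes in place of 7196 were higher and 5827 in place of 7782 lower. The median was 0.20 for the members and −0.03 for all genes. The 3 were Slfn9, at 3554 in Zmynd8 KO and 2520 with WT Zmynd8 (0.50, interval 0.42 to 0.57), Slfn8, at 11451 and 8410 (0.45, 0.40 to 0.49), and Slfn4, at 79975 and 65197 (0.29, 0.28 to 0.31). On library totals Slfn4 was at 0.22 and did not pass. Slfn3 (0.20), Slfn5 (0.04), Slfn1 (−0.03) and Slfn2 (−0.18) did not pass the fold. With D/E-A in place of WT Zmynd8, 4 of 7 were higher and 0 lower, against 36.7% higher and 35.9% lower of 12771 genes, with medians of 0.48 and 0.02. Slfn9 was at 5395 with D/E-A and 2361 with WT Zmynd8 (1.19, 1.12 to 1.26), the largest difference of any member between lines, and ranked 472 from the top of all genes. Slfn8 was at 15028 and 7880 (0.93, 0.89 to 0.97), Slfn3 at 281 and 159 (0.82, 0.53 to 1.10) and Slfn5 at 38415 and 27489 (0.48, 0.46 to 0.51). Slfn4 (0.22), Slfn1 (−0.09) and Slfn2 (−0.24) did not pass. On library totals Slfn2 (−0.28) passed as lower. Slfn9 and Slfn8 had the highest values in both comparisons, which share the library with WT Zmynd8. Of the interferon-response genes, 15 were higher and 1 lower in Zmynd8 KO (median 0.27), and 17 were higher and 5 lower with D/E-A (median 0.36). The neutrophil markers summed to 10300 CPM with WT Zmynd8, 6960 CPM in Zmynd8 KO and 4420 CPM with D/E-A, and the macrophage markers to 2180, 2940 and 3690 CPM. Their part in the result was not tested.

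In p65 KO cells under LPS, 1 of 7 members was higher and 2 were lower than with WT p65, against 26.3% higher and 25.7% lower of 19879 genes tested, with medians of −0.13 and 0.01. On library totals 2921 genes in place of 5222 were higher and 3033 in place of 5103 lower. Slfn1 was higher, at 829 and 658 (0.33, interval 0.18 to 0.48). Slfn3, at 110 and 184 (−0.74, −1.09 to −0.39), and Slfn9, at 2851 and 3830 (−0.43, −0.50 to −0.36), were lower. With K122R, 3 of 7 were higher and 0 lower, against 30.8% higher and 32.5% lower of 19670 genes, with medians of 0.11 and 0.01. Of all genes past the fold, 48.6% were higher, and 31.3% on library totals, where 2747 genes in place of 6051 were higher and the median of all genes was −0.09. The 3 members were Slfn4, at 82609 with K122R and 47337 with WT p65 (0.80, 0.79 to 0.82), Slfn2, at 21292 and 14979 (0.51, 0.48 to 0.54), and Slfn1, at 924 and 656 (0.49, 0.35 to 0.64). The long members Slfn5 (0.11), Slfn8 (−0.21) and Slfn9 (0.00) did not pass. On library totals Slfn8 (−0.35) and Slfn3 (−0.33) passed as lower. Both comparisons share the WT p65 library, and the macrophage markers summed to between 1120 and 1250 CPM in these 3 lines. The dendritic cell markers, 3 of 4 of them listed with K122R, summed to 9.13 CPM there and to 25.2 CPM with WT p65. The T cell markers listed there summed to 7.99 and 6.7 CPM. The part of these markers in the result was not tested. Rela was at 5850 reads in the K122R line against 1601 with WT p65, so the lines differed in the amount of p65 transcript as well as in its sequence. Of the interferon-response genes, 0 were higher and 2 lower in p65 KO (median 0.04), and 16 were higher and 1 lower with K122R (median 0.28).

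**Figure D5:**
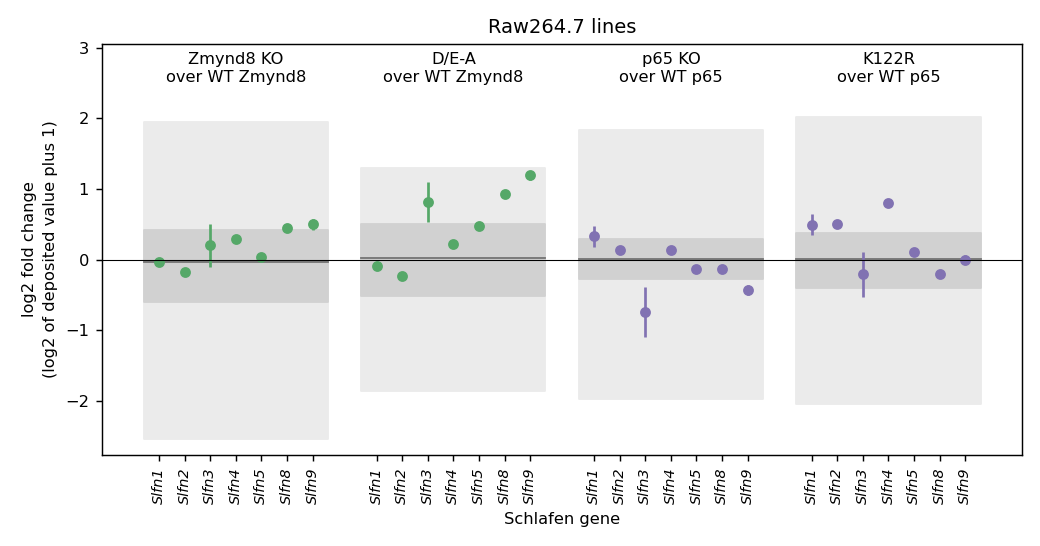
Log2 fold change of each Schlafen gene between Raw264.7 lines, on log2(deposited value + 1), for Zmynd8 KO and D/E-A over WT Zmynd8 (green) and for p65 KO and K122R over WT p65 (purple). Bars, line and bands are as in the plot of cKO over WT, and the points run from −0.24 to 1.19 in the green and from −0.74 to 0.80 in the purple panels, all within the middle 95% of all genes.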

How the data were processed

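RNA-seq libraries of 6 BMDM groups and 6 Raw264.7 lines were used, 12 of 47 samples in total, and 35 were not used here. Per the study's methods, BMDM reads (single end, 50 bases) were aligned to the mm10 mouse transcriptome with TopHat. The deposited BMDM tables hold estimated counts per gene, made by the authors with a counter not given in the sources used here, and TPM as the authors computed it. Whether these values come from the TopHat alignments is not given either. Counts were rounded to whole numbers. For the Raw264.7 tables the aligner, the counter and the genome build are not given in the sources used here. Their deposited values are a signal, whole reads divided by a size factor of the library, and reads were recovered from them within 0.1 of a whole number with 1 exception, the Zmynd8 value of the Zmynd8 KO line, which was not used. The authors' own fold changes and p-values in these tables were not used, and neither were 2 columns of per-sample values that match no label. Entries with no gene or value (431 in the M0 and M1 tables and 2 in the M2 table) were dropped. Reads of the WT Zmynd8 line in the D/E-A comparison were taken from the Zmynd8 KO table.

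CPM was the count over the library total. Fold changes are differences of log2(CPM + 1) or log2(deposited value + 1), which understates changes of low genes. Genes with a mean count of at least 10 (lines: mean value of at least 1) entered, and a fold of at least 1.2 between genotypes or lines and of at least 2 between treatments was counted in 11 comparisons. With 1 library per group conditions could not be tested against a spread between replicates. The limits are 95% Clopper-Pearson limits from SciPy 1.17.1. TMM (edgeR 4.0.16) and median-ratio (DESeq2 1.42.0) size factors, both in R 4.3.3, an exact binomial test of the reads of both libraries (which compares those libraries and not the conditions), the deposited TPM, other folds, pseudocounts and filters were tried as alternatives. The interval and fold code was tested on simulated data. Members, lists and rules were chosen with earlier results of these data known. The genes named are the members, other rows whose symbol begins with Slfn, the 3 genes most correlated with each member (1 of them is not reported here), 5 neighbours on each side of the cluster, and lists of interferon-response, ligand and receptor, treatment-response and cell type marker genes. From these lists the genes with the highest and lowest values are named. Shared words of 50 bases were counted on the GENCODE transcripts of GRCm38, and motifs were searched in the 250 bases before each RefSeq start.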

Additional observations from a re-analysis of the deposited data

Results flagged for a closer look

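For all 7 members the cKO minus WT difference under IL-4 was opposite in sign to that under NT, as it was for 45.8% of the 12118 genes tested in both. All 7 passed the fold as lower under NT and higher under IL-4, as 4.77% of these genes did. The differences between the log2 fold changes (IL-4 minus NT) were 4.54 for Slfn4, 3.2 for Slfn1, 2.92 for Slfn3, 2.86 for Slfn5, 2.59 for Slfn9, 2.0 for Slfn8 and 1.1 for Slfn2. Slfn3, Slfn5 and Slfn9 also passed the fold in opposite directions under LPS and NT, with differences of 2.64, 2.5 and 2.06. Of the 11552 genes tested in both, 1381 were lower under NT and higher under LPS by the fold. Seen from the treatment, Slfn3, Slfn4, Slfn5 and Slfn9 were lower after IL-4 in WT and higher in cKO cells, by the same 2.92, 4.54, 2.86 and 2.59, since these values rest on the same 4 libraries. Of the 12689 genes tested in both, 0.205% were lower by at least 2-fold after IL-4 in WT and higher by that fold in cKO cells. With 1 library per group these differences were not tested. The neutrophil marker sum was 2.29 and 2.35 CPM in the NT libraries and 382 and 514 CPM in the IL-4 libraries of WT and cKO cells, and its part in these values was not tested.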

How the results depend on the processing

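Across the alternatives, 119 of 130 counts of members past the fold stayed within 1.5 times the main count. With a fold of at least 2, the number of members higher went to 0 for cKO over WT after LPS, to 2 for cKO over WT after IL-4, to 0 for Zmynd8 KO, to 1 for D/E-A and to 0 for K122R, and for p65 KO both the higher and the lower number went to 0. All these follow from the stricter fold. With a fold of at least 1.2, 1 member (Slfn3) was lower after LPS in WT cells. With median-ratio scaling 1 member, Slfn1 (−0.27), was lower in cKO cells after LPS. With library totals of the recovered reads 1 member was lower with D/E-A, Slfn2 (−0.28), and 2 with K122R, Slfn8 (−0.35) and Slfn3 (−0.33). The cause of these shifts was not tested. Smaller changes by scaling were losses of 1 call: Slfn2 under IL-4 with TMM (cKO over WT), Slfn2 after IL-4 in cKO cells with TMM and the median ratio, Slfn9 after IL-4 in WT cells with the deposited TPM, and Slfn4 in Zmynd8 KO on library totals. Slfn5 gained a call after LPS in WT cells with TMM and the median ratio. The pseudocount of 0.1 and no filter changed no number of members. The binomial test covers counting error alone and says nothing about stability at these read numbers. Over all genes, the numbers past the fold moved by over 1.5 times in these cases. On library totals, those higher went from 7196 to 4386 in Zmynd8 KO, from 5222 to 2921 in p65 KO and from 6051 to 2747 in K122R, and those lower from 5103 to 3033 in p65 KO. With the deposited TPM, cKO over WT under NT went from 3115 to 1552 higher and from 3614 to 5490 lower. After LPS in WT cells, 1345 higher became 2217 with TMM and 2371 with the median ratio, and 4203 lower became 2219 and 2050. In cKO cells, 1668 higher became 2515 and 2669, and 4157 lower became 2461 and 2258. The cause of these was not tested. Of the members' log2 fold changes, 160 moved by less than the counting limits, 92 by more, and 0 of those past the fold changed sign. No paired analysis was possible because each group has 1 library, and leaving out a replicate could not be done for the same reason. Depth limits Slfn3 most, with 103 counts in the cKO NT library.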
